A study of Mus musculus with 2 samples.

Results

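Kruppel-like factors (Klf genes) were followed in mouse haematopoietic stem cells that lacked Wip1 or carried it. The family is described here through 10 genes, Klf2, Klf3, Klf4, Klf5, Klf6, Klf7, Klf9, Klf10, Klf12 and Klf13, of 18193 named genes on the array. They were chosen by gene name, with the higher Klf2 and Klf4 intensities of the knockout array already known, so those values are a description of these 2 arrays and were not tested. Every probe set assigned to a single one of these genes was used, 38 in all.

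Total RNA from samples labelled as haematopoietic stem cells was hybridised to Affymetrix arrays, 1 array for Wip1 knockout mice and 1 for wild-type mice, both 3 months old. Wip1 is the phosphatase encoded by Ppm1d, a known brake on p53 and on stress kinases. The labels give no strain, sex, number of animals, surface phenotype or description of the deleted allele. With 1 array per genotype there is no replicate and no test, and the genotype cannot be told apart from any other difference between these samples. In RNA of a mixed sample, fewer cells of a type and less RNA per cell cannot be told apart either.

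Kruppel-like factors are transcription factors with zinc fingers at the end of the protein that bind CACCC elements and GC-rich DNA. The fingers are alike throughout the family, and the front part of each protein sets the partners it binds. Klf3, Klf8 and Klf12 recruit the corepressor CtBP, whereas Klf9, Klf10, Klf11, Klf13, Klf14 and Klf16 recruit the corepressor Sin3A, and Klf1, Klf2, Klf4, Klf5, Klf6 and Klf7 act mainly as activators. In blood the family is known for Klf1 in red cells, Klf2 in resting lymphocytes and Klf4 in monocytes.

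The windows before the start sites of the factors that differed most in each direction are shown because they carry the elements that the family itself binds. They are the 250 bases before the RefSeq start (build GRCm38.p6) of Klf2 (chr8:72318812-72319061, plus strand), Klf4 (chr4:55532476-55532725, minus strand), Klf9 (chr19:23140976-23141225, plus strand) and Klf13 (chr7:63938916-63939165, minus strand). Each is written 5′ to 3′ on the gene's strand, and capitals mark CACCC or GGGCGG on either strand.
Klf2: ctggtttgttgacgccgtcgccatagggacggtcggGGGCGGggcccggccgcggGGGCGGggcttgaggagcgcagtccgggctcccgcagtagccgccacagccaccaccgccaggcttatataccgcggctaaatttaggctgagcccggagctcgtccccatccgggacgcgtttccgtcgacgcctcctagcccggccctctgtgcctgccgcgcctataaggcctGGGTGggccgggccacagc
Klf4: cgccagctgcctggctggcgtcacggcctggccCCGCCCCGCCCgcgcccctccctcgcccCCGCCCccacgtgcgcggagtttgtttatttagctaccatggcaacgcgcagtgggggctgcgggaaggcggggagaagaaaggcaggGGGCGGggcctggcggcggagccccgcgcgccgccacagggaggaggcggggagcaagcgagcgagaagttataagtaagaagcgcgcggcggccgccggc
Klf9: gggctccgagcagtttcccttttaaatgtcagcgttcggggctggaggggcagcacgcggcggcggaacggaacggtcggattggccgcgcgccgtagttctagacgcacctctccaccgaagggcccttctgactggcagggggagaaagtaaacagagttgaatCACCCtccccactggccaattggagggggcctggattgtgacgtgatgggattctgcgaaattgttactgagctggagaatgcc
Klf13: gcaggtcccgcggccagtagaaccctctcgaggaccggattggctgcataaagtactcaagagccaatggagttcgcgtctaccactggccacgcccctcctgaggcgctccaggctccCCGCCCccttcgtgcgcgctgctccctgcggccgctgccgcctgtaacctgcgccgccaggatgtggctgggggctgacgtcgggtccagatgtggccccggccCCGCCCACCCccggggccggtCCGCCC

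The higher pair held GC boxes before the start, with 2 matches to GGGCGG for Klf2 and 4 for Klf4, and the lower pair held 0 for Klf9 and 3 for Klf13. CACCC was matched once in each of Klf2, Klf9 and Klf13 and not in the Klf4 window. In the Klf13 window the elements overlapped by 1 base. The table held windows for 8 of the 10 genes, and 6 of the 8 had CACCC and 6 had GGGCGG, against 52.0% and 32.7% of all 32851 windows of the same length. The share of G and C, of which these elements are largely made, ran from 48.0% for Klf12 to 78.4% for Klf3, and 7 of the 8 windows lay above the median of all windows (52.4%). Klf2 held the only match to the MEF2 consensus, ctaaatttag, between 118 and 109 bases before the start, a match found in 2.92% of all windows. None of the 8 held TGACGTCA, the cAMP response element (1.55% of all windows), or a p53 half-site (7.13%). Matches describe these letters and are not measured binding.

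An intensity here is the authors' deposited value for a probe set, on a linear scale in arbitrary units. The floor was the median of all probe sets on the same array, 25.9 on the knockout and 25.2 on the wild-type array. A probe set counted as detected with a value over the floor on 1 array or both, and as bright when both arrays lay above the 75th percentile (113 and 111). All 10 factors had a detected probe set, as did 62.9% of all genes, and 31 of the 38 probe sets were detected. Being above the floor does not by itself show expression in stem cells, since Cd3e and Nkg7 from the T and natural killer cell list were above it too. Of the 7 genes of that list, 6 had a probe set and 3 were detected. In knockout and wild type, Cd3e (33.4 against 39.0) and Thy1 (67.7 against 69.7) were dim, while Nkg7 (668 against 835) was bright. By their brightest probe set, 7 of the 10 factors were bright on both arrays, namely Klf2, Klf4, Klf6, Klf7, Klf9, Klf10 and Klf13. The same held for 6692 of the 11440 detected genes, so the count by itself does not set the family apart. Klf3 was above the 75th percentile on the knockout array only, and Klf5 and Klf12 lay between the median and the 75th percentile on both.

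**Figure D1:**
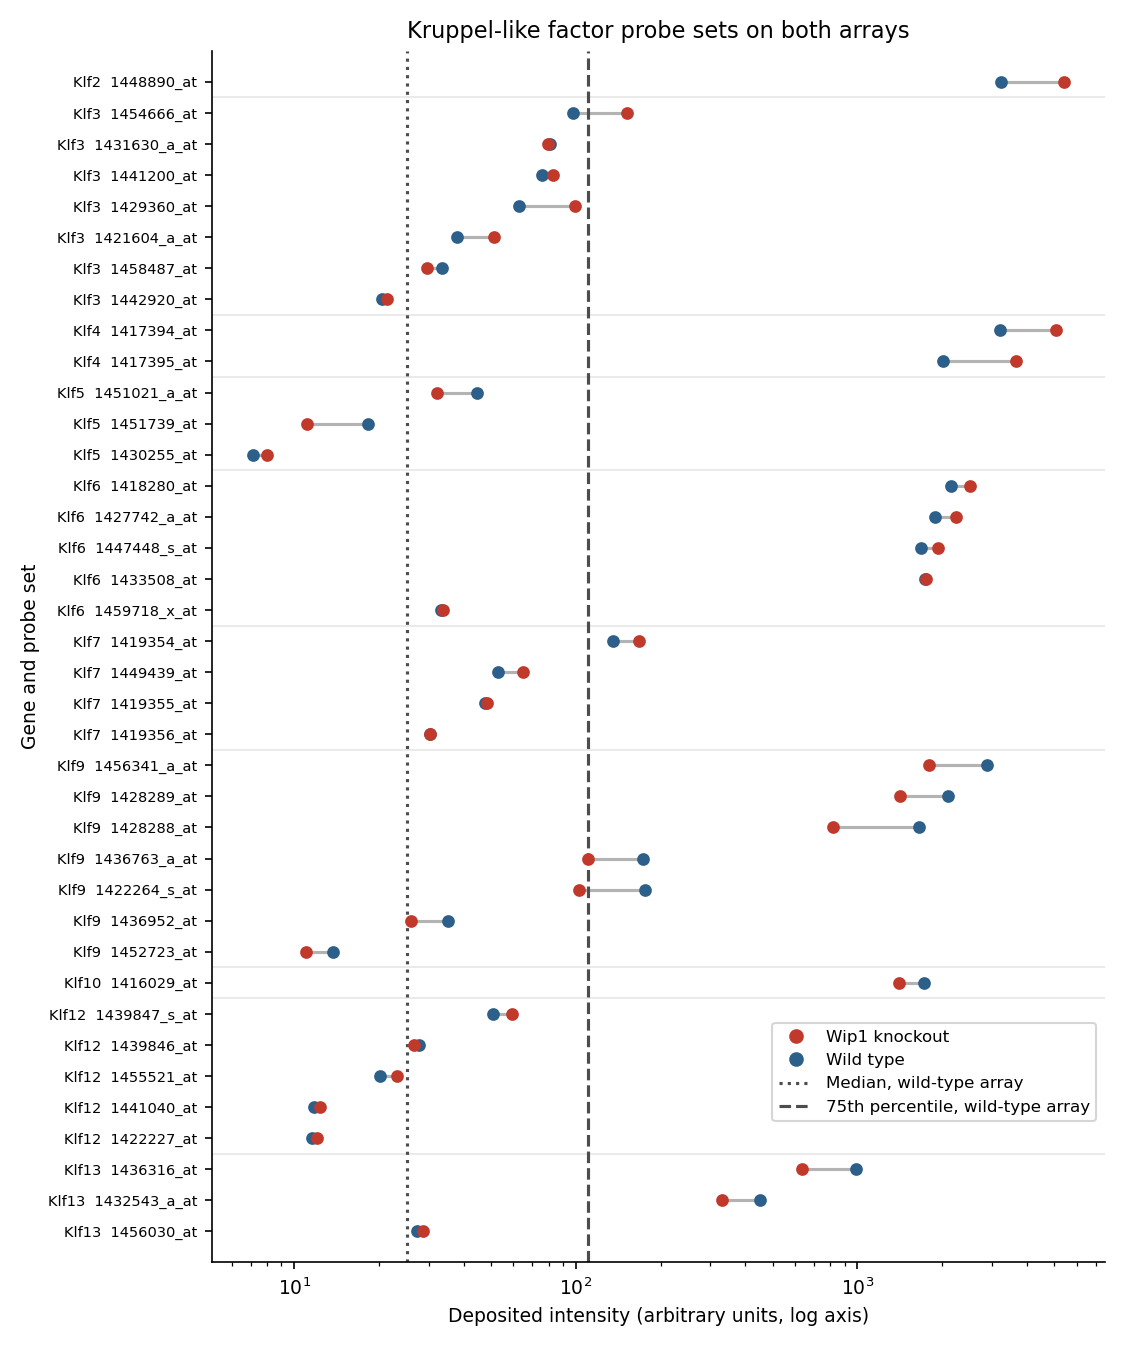
Deposited intensity (arbitrary units, log axis) of each of the 38 Kruppel-like factor probe sets, with the knockout array in red, the wild-type array in blue and each gene's probe sets from brightest to dimmest. Klf2, Klf4, Klf6, Klf9 and Klf10 have probe sets far to the right of the 75th percentile, while every probe set of Klf5 and Klf12 lies below the 75th percentile.

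Each difference is the log2 intensity of the knockout less that of the wild type, after centring on the median of all detected gene probe sets, which removed a shift of -0.01, and each gene is represented by its brightest probe set. The file offers a single measure of error, how far the probe sets of a gene spread around their mean. Pooled over the 5084 genes measured by 2 or more detected probe sets, this SD was 0.22 on the log2 scale. It holds no variation between animals or arrays. A difference of at least 1.5-fold was counted. On that count 3 of 10 factors were higher in the knockout (Klf2, Klf4 and Klf3), against 2.30% of 11440 detected genes, and 2 were lower (Klf9 and Klf13), against 1.55%. None reached 2-fold, a size met by 0.664% of detected genes. Among bright genes the shares were smaller, 1.45% higher and 1.15% lower of 6692 genes, and 2 of the 7 bright factors were past 1.5-fold in each direction. Klf2 and Klf4 were among the values that led to the choice of the family, so nothing is read from these counts. The median difference of the 10 factors was 0.24 against 0.00015 over all detected genes, and the median size regardless of direction was 0.54 against 0.15. Klf2 and Klf4 are part of both medians of the factors, so nothing is read from these medians either.

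Klf2 and Klf4, the factors of resting lymphocytes and of monocytes, were both higher in the knockout sample. The single probe set of Klf2 had an intensity of 5416 in the knockout and 3242 in the wild type, a log2 difference of 0.75, or 1.69-fold. It lay at the 99.4th and 99.0th percentile of its array, so the transcript gave a strong signal with or without Wip1. Klf4, also one of the factors used to reprogram cells to pluripotency, was measured by 2 probe sets. The brighter one read 5087 against 3202, a log2 difference of 0.68. The other read 3641 against 2003, a log2 difference of 0.88. Both were therefore past 1.5-fold in the same direction. Every detected probe set was at least 1.5-fold higher for 0.590% of the 5084 genes with several detected probe sets, and Klf4 was the only one of 7 such factors in that position. The median over probe sets was at least 1.5-fold higher for 1.53% of those genes. The probe sets of Klf4 share 1 sequence accession in the annotation. Klf4 was already known to be higher when the family was chosen, so nothing is read from these shares.

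The other activators differed less. Klf6, a widely expressed factor that responds early to stimulation, was bright in 4 of its 5 probe sets. They read 2510 against 2156, 2241 against 1891, 1935 against 1679 and 1757 against 1735 in knockout and wild type, with log2 differences of 0.23, 0.26, 0.22 and 0.03. The fifth was dim and nearly level, at 33.7 against 33.3. All 5 were on the higher side, a position held by 25.7% of genes with several detected probe sets, and the differences were close to or below the SD between probe sets. Klf7, known best for its role in neurons, read 168 against 136 in its brightest probe set (log2 difference 0.32), 64.7 against 52.99 in the next (0.30) and 48.5 against 47.8 in the third (0.04). Its dimmest probe set held the same deposited value, 30.4, on both arrays. Klf5, a factor of epithelial cells such as those of the gut, was dim: 32.2 in the knockout and 44.7 in the wild type by its only detected probe set, a log2 difference of -0.46. Its other 2 probe sets were under the floor on both arrays.

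**Figure D2:**
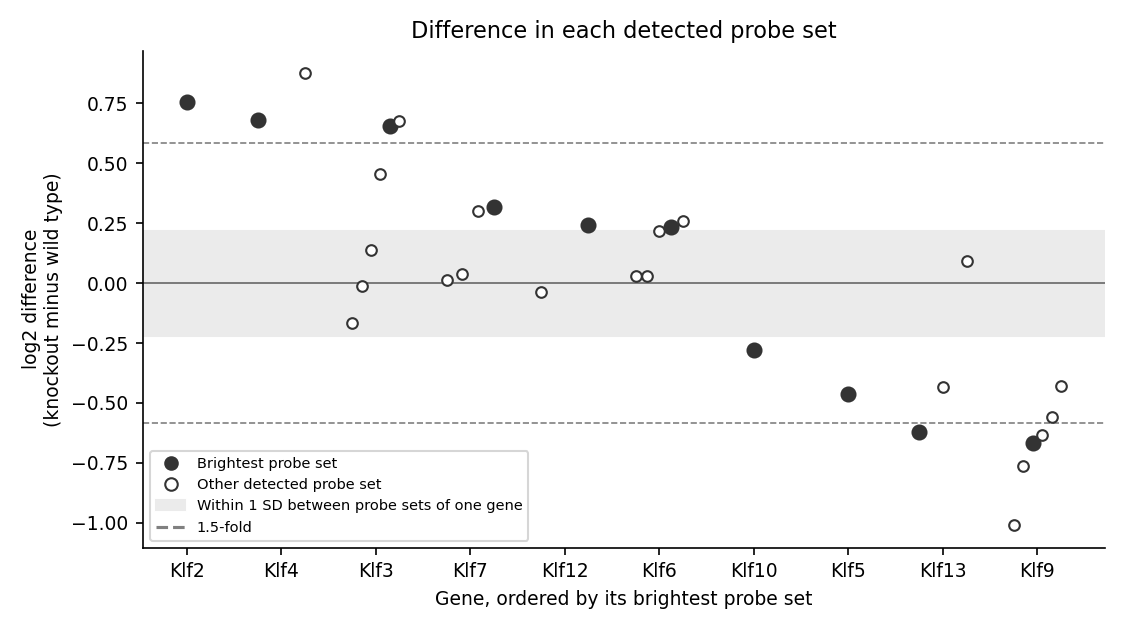
Log2 difference (knockout minus wild type) of each detected probe set of the 10 factors, with the brightest probe set of a gene filled, a grey band of 1 SD between probe sets of one gene (0.22) and dashed lines at 1.5-fold. Both Klf4 points lie above the upper line, all 6 Klf9 points lie below the band, and the Klf3 points spread from -0.17 to 0.68.

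Klf9 was lower in the knockout in every detected probe set, and was the only one of the 7 factors with several detected probe sets of which this held. Klf9 encodes a repressor known to be induced by thyroid and glucocorticoid hormones. Its 3 bright probe sets read 1796 against 2881, 1411 against 2100 and 816 against 1658 in knockout and wild type, with log2 differences of -0.67, -0.56 and -1.01. Of these, the probe set at -1.01 was the only one of any of the 10 factors past 2-fold, and its values on the arrays differ by an exact multiple of 0.5, a kind of value described with the facts on both arrays. Dimmer probe sets read 110 against 173 (-0.63), 102 against 175 (-0.76) and 25.9 against 35.2 (-0.43), the last just above the floor on the knockout array. A seventh lay under the floor on both arrays. Thus 6 of 6 detected probe sets were lower and 4 of them by at least 1.5-fold. All detected probe sets were lower for 28.6% of genes with several, and the median over probe sets, -0.65 for Klf9, was at least 1.5-fold lower for 0.885% of them. Without the probe set classes that can share sequence with other transcripts (_s_at, _x_at and _a_at), the brightest remaining one stood at -0.56, just short of 1.5-fold.

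Klf13, a close relative of Klf9 that is known to act on cytokine and chemokine genes of lymphocytes, was also lower in its bright probe sets. They read 635 against 984 and 331 against 452, log2 differences of -0.62 and -0.44. The third probe set lay just above the floor at 28.7 against 27.2, a difference of 0.09, so the probe sets of Klf13 did not all go one way. Klf13 was only just past 1.5-fold, at 1.54-fold, and was not past it by the median of its probe sets (-0.44) or after loess normalization. The nearest factor on the other side of 1.5-fold was Klf5, at 1.38-fold lower. Klf10, a repressor induced early by TGF-beta, had 1 probe set, with an intensity of 1409 in the knockout and 1727 in the wild type. That is a log2 difference of -0.28, slightly more than the SD between probe sets.

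Klf3 was higher by its brightest probe set and uneven over the others. Klf3 is a repressor found across blood lineages and known to be activated by Klf1 in red cells. Its brightest probe set read 152 against 97.3 in knockout and wild type (0.65), and another read 99.2 against 62.7 (0.68). One more read 51.4 against 37.8 (0.46). The remaining detected probe sets read 82.7 against 75.8 (0.14), 79.6 against 81.0 (-0.01) and 29.5 against 33.5 (-0.17). So 4 of 6 were higher, 2 of them past 1.5-fold, and the median over the 6 was 0.30. Klf3 was not past 1.5-fold by that median, nor with a floor at the 75th percentile or with the floor added as an offset. Whether the probe sets that differ measure different transcript forms is not known from these files. Klf12, a repressor of the AP-2 alpha gene, was dim. Its brighter detected probe set read 59.4 against 50.6 (0.24) and the other 26.7 against 27.7 (-0.04), and 3 more were under the floor on both arrays.

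**Figure D3:**
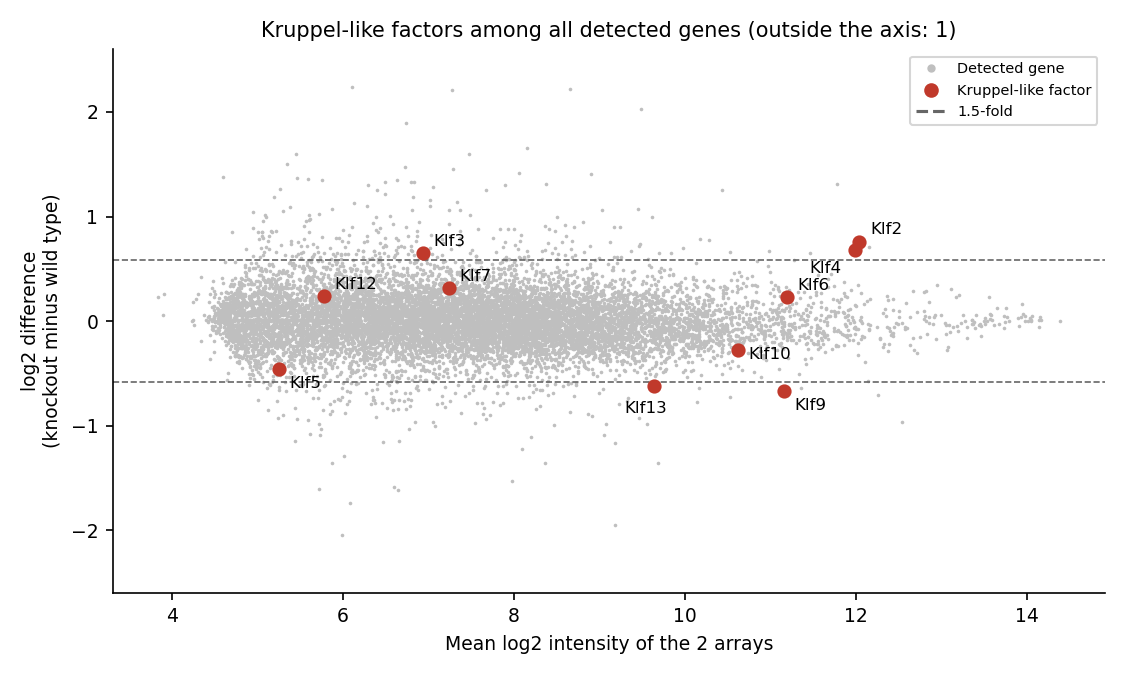
Log2 difference (knockout minus wild type) against the mean log2 intensity of the 2 arrays for the 11440 detected genes in grey and the 10 factors in red, with dashed lines at 1.5-fold and 1 gene outside the axis. Klf2, Klf4 and Klf9 sit at the bright end, where few grey points lie beyond the lines.

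The family was also grouped by partner protein. This grouping was made after the values had been seen, so nothing is read from its counts. Of 6 genes whose products bind Sin3A, all detected, 5 were lower in the knockout by any amount and 1 had the same value on both arrays, where 49.97% of all detected genes were lower by any amount. The lower ones were Klf9, Klf13, Klf10, Klf11 (237 against 282, -0.24) and Klf16 (205 against 241, -0.22), and the equal one was Klf14, at 44.5. The median of the group was -0.26, and its 2 genes past 1.5-fold were Klf9 and Klf13. The mainly activating group had 4 of 6 genes higher and a median of 0.28, with Klf5 and the red cell factor Klf1 (39.8 against 48.7, -0.28) lower. Both detected CtBP-binding genes, Klf3 and Klf12, were higher by their brightest probe set, and Klf8 had no probe set named for it alone. Klf10, Klf11, Klf16 and Klf1 each differed by about the SD between probe sets, which is as much as probe sets of one gene commonly differ.

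**Figure D4:**
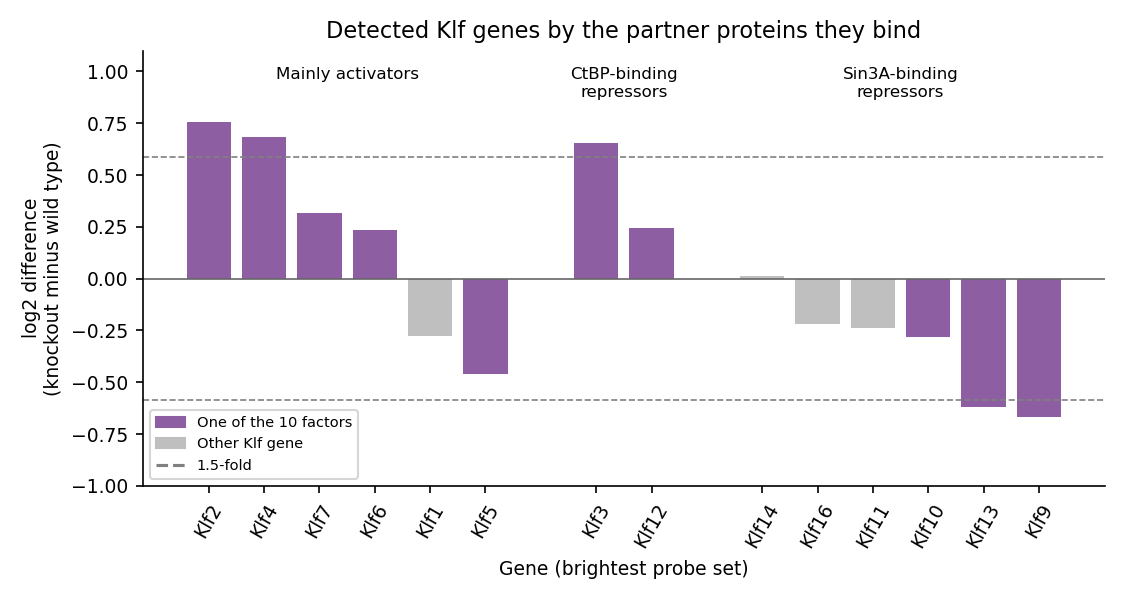
Log2 difference (knockout minus wild type) of the brightest probe set of the 14 detected Klf genes, grouped by known partner proteins, with the 10 factors in purple, other Klf genes in grey and dashed lines at 1.5-fold. Klf2, Klf4 and Klf3 pass the upper line, Klf9 and Klf13 pass the lower line, and the small bar of Klf14, equal on both arrays, comes from the centring.

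The rest of the family differed little. The list of other Klf and Sp genes, which bind similar GC-rich elements, had 9 of 16 genes detected, 4 higher, 3 lower and 2 equal, none past 1.5-fold, with a median of 0.01. Sp7, a factor of bone-forming cells, differed by 0.25, Klf1 by -0.28 and Klf11 by -0.24. The general factor Sp1 was bright (1107 against 994, 0.17) and so was Sp3 (399 against 361, 0.16). Corepressors and coactivators of the family had 10 of 11 genes detected. By their brightest probe set 5 were higher and 5 lower, none past 1.5-fold, with a median of 0.0016. Hdac2, counted as lower at -0.12, had 3 detected probe sets that ran from -0.22 to 0.70. Ctbp2, which encodes a form of CtBP, differed by -0.32, the acetyltransferase genes Crebbp and Kat2b by 0.26 and 0.18.

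Genes known to act upstream of Klf2 and Klf4 were mostly slightly higher by their brightest probe set. The MEK5, ERK5 and MEF2 route induces Klf2, and class II histone deacetylases restrain MEF2. Of 10 such genes 8 were higher and 2 lower, none past 1.5-fold, with a median of 0.19, below the SD between probe sets (0.22). Foxo1, counted as higher at 0.08, had a median of -0.06 over its 3 detected probe sets. Map2k5 (0.18) had probe sets from -0.37 to 0.40, and Map3k3 (0.24) from -0.13 to 0.24. Of all detected genes, 47.67% were higher by any amount. The deacetylase genes Hdac7 (266 against 196, 0.45) and Hdac5 (0.28) were higher, and the serum response factor gene Srf was lower (-0.27). Mef2c, whose product can bind a MEF2 site, read 1148 against 988 (0.23), and Mapk7, which encodes ERK5, was dim at 31.4 against 37.2 (-0.23). Genes for turnover of the proteins had 5 of 7 higher, 1 lower and 1 equal, with a median of 0.04. Of these the ubiquitin ligase subunit gene Fbxo32 was past 1.5-fold (103 against 69.0, 0.60), the ligase gene Wwp1 differed by 0.39 in its brightest probe set and had a median of 0.09 over 3 probe sets, and Smurf1 differed by 0.07.

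Of 10 genes known as targets of Klf2, 7 were detected, 5 higher and 2 lower, with a median of 0.26. The share of all detected genes that were higher by any amount was 47.67%. Il7r, the interleukin-7 receptor gene, was the furthest, at 175 in the knockout against 70.3 in the wild type (1.33). Nos3, the endothelial nitric oxide synthase gene, was dim at 42.1 against 26.9 (0.66), and Il6ra differed by 0.38. The sphingosine phosphate receptor gene S1pr1, a well known Klf2 target in T cells, was on the other side at 144 against 173 (-0.25), and the thrombomodulin gene Thbd was level at 66.1 against 68.0 (-0.03). Il7r is also a gene of early lymphoid cells. Whether any of these differences is connected with Klf2 was not tested.

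Klf2, Klf4, Klf6 and Klf10 belong with early response genes, which are induced within a short time of stimulation or of handling cells. All 19 genes of that list were bright on both arrays, with 14 higher and 5 lower in the knockout, where 47.67% of all detected genes were higher by any amount. At least 1.5-fold higher were 2 (against 1.45% of all bright genes), and the median was 0.17. Fos read 16525 against 14848 (0.17), Egr1 16196 against 15787 (0.05) and Jun 13486 against 13665 (-0.01). These values were high in both samples, and the differences were smaller than the SD between probe sets. The largest differences were those of Nr4a2 (0.77, with a median of 0.41 over 6 probe sets), Egr2 (0.59) and Junb (0.34). The part of early response in the Klf2 and Klf4 differences was not tested.

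Markers of the labelled cells and of other blood cells are given beside these values. Summed intensities, here and for the cell types that follow, cover every listed gene with a probe set, also those under the floor. The stem cell list had 8 genes with a probe set, all detected and 7 bright, among them Kit (960 against 772) and Procr (314 against 291), with 4 higher, 3 lower and 1 equal and a median of 0.07. Its largest differences were those of Hlf (0.70), Slamf1 (-0.66, with -0.29 as its median) and Cd34 (0.43). The labels give no surface phenotype, so these values do not show whether either sample held more stem cells or more of other progenitors. Monocyte and macrophage markers, which bear on Klf4, had 6 of 8 detected genes higher, 2 of them past 1.5-fold, a median of 0.21 and a summed intensity of 3025 in the knockout against 2388 in the wild type. Of all detected genes, 47.67% were higher by any amount and 2.30% at least 1.5-fold higher. Csf1r (1.40, with probe sets from 0.35) and Ly86 (0.99) were past 1.5-fold and C1qa differed by 0.46, whereas Lyz2 was level (1139 against 1151), Ccr2 was lower (-0.45) and Adgre1 was under the floor on both arrays. B cell markers had a median of 0.27 over 5 detected genes and a summed intensity of 318 against 273. Of these genes 3 were higher, 1 lower and 1 equal. Ebf1 was at least 0.36 higher, Cd79a and Cd79b differed by 0.27 each and Ms4a1 by -0.03. Pax5 had the same value, 37.2, on both arrays. Apart from Cd79b (173 against 146), these markers were dim. T and natural killer cell markers had a median of -0.21 over 3 detected genes, with Nkg7 at -0.31, Cd3e at -0.21 and Thy1 at -0.03. Their summed intensity over the 6 genes with a probe set was 804 against 981.

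On the lower side, beside Klf9 and Klf13, lay megakaryocyte markers, with 5 of 5 detected genes lower, 2 past 1.5-fold (Pf4 at -0.77 and Vwf at -0.66, with Itga2b at -0.44), a median of -0.44 and a summed intensity of 602 against 861. Of all detected genes, 49.97% were lower by any amount and 1.55% at least 1.5-fold lower. Erythroid markers had a median of -0.33 over 4 detected genes (summed intensity 232 against 303), with Gata1 at -0.84, Slc4a1 at 0.49 and Epor at -0.38. Neutrophil markers had a median of -0.07 over 6 (summed intensity 6604 against 7002), with Elane at -0.48, Camp at -0.26 and Ltf at 0.11. Endothelial markers had a median of -0.05 over 5 (summed intensity 479 against 515), with Vwf at -0.66, Pecam1 at 0.30 and Kdr at 0.14. The part of these cell types in the differences of the Kruppel-like factors was not tested.

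Of the facts that concern both arrays as a whole, the targeted gene comes first. The 2 probe sets of Ppm1d read 160 against 167 and 59.0 against 55.6 in knockout and wild type (log2 differences -0.05 and 0.10). Their place relative to the deletion was not stated, so they cannot serve as a check of the genotype label. Sex-linked transcripts differed, with Xist lower in the knockout in its 3 probe sets (-0.86 to -0.58). The Y-linked Eif2s3y was higher in its only detected probe set (149 against 31.8). The Xist probe sets read 3778 against 6228, 1074 against 1961 and 1051 against 1581, all bright on both arrays. The knockout array thus gave a strong Xist signal beside Eif2s3y, and the labels do not give the sex of the animals. The part of sex in the values of the Kruppel-like factors was not tested. In the file, 5.63% of probe sets held the same value on both arrays and a further 3.23% differed by an exact multiple of 0.5. Of the 38 Klf probe sets, 1 was equal (in Klf7) and 4 differed by such a step: the brightest probe sets of Klf4 and Klf7, the Klf9 probe set at -1.01 and the Klf3 probe set at 0.68. Signals computed for each array by itself would seldom give such values, so the method behind the intensities is not settled. Without all probe sets of these kinds, Klf2, Klf3 and Klf4 were still at least 1.5-fold higher and Klf9 and Klf13 at least 1.5-fold lower.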

How the data were processed

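RNA of 1 Wip1 knockout and 1 wild-type sample was measured on Affymetrix arrays. For each array the authors deposited linear intensity values, 1 for each of 45037 probe sets. Per the submitters' processing notes MAS5 was used (no version is named); how background and scale were set was not stated. Equal values and exact steps of 0.5 between the arrays leave it unsettled whether MAS5 made these numbers. Depth has no meaning for arrays, whose number limits the precision.

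Probe sets were named through the platform annotation: 34945 had 1 gene symbol, 932 several and 9160 none, and only the first kind was used. Of these, 34741 matched a gene identifier of the RefSeq gene table (GRCm38.p6), which updated symbols. Intensities were converted to log2, centred, floored at each array's median (a value under it makes the difference a bound), and each of 18193 genes was represented by its brightest probe set, with Python 3.11.15, pandas 2.3.3 and statsmodels 0.14.6 (loess). Folds of 1.5 and 2 were counted, and no test was made. Values that were equal or differed by a multiple of 0.5 were recognised within 1e-06. The procedure was tested on simulated data, with 2-fold changes planted in the brighter genes and noise below the spread over detected genes. That test does not show how well differences near 1.5-fold are recovered. Promoter windows came from the RefSeq table of GRCm38.p6.

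The named genes were all 10 factors, Ppm1d, and the 3 detected genes of each list with the largest difference. Further genes were picked with their values in view. The members, lists and fold sizes were chosen with earlier results of these data known. As alternatives the centring, the normalization (quantile, loess), the height of the floor or its use as an offset, the probe set taken per gene and the fold were varied.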

Additional observations from a re-analysis of the deposited data

How the results depend on the processing

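Of 107 values of single factors under the alternatives, 105 moved by under 1 SD between probe sets and none of the factors past 1.5-fold turned its direction. The 2 that moved were Klf3 as the median over its probe sets (0.30) and Klf12 once the _s_at, _x_at and _a_at classes were left out (-0.04). Many of these values could hardly move. Leaving out the centring, centring over all probe sets and using no floor gave the same values. Klf2 and Klf10 have 1 probe set each, so the choice of probe set left them unchanged. Of the 10 factors above the floor, 8 remained with a floor at the 75th percentile (Klf5 and Klf12 were lost) and 9 without the named classes (Klf5 was lost), and with no floor that count has no meaning. At a fold of 2, 0 factors were higher and 0 lower, against 52 and 24 of all detected genes. The count of factors at least 1.5-fold lower was 1 after loess, with Klf13 lost, 1 as the median over probe sets, again with Klf13 lost, and 1 without the _s_at, _x_at and _a_at classes, where Klf9 was lost because its next probe set stood at -0.56. Klf3 was no longer past 1.5-fold with a floor at the 75th percentile, with the floor added as an offset or as the median over probe sets. Klf2 stayed between 0.74 and 0.79, Klf4 between 0.67 and 0.88 and Klf9 between -0.68 and -0.56 over all alternatives. Leaving out probe sets whose values were equal or differed by a multiple of 0.5 was added after seeing the data. No paired analysis was possible because each genotype has 1 array. Dim probe sets, such as those of Klf5 and Klf12, lie close to the floor, which limits what their differences can show.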

Other observations

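Because Klf9 is a known target of the glucocorticoid receptor, a list of 13 other genes known to respond to glucocorticoids was put together after the values of Klf9 had been seen, and the values of some of its genes were known by then. It is a description only. Because of how the list was made, nothing is read from its counts. All 13 were detected, 11 lower and 2 higher in the knockout, with a median of -0.36. Of all detected genes, 49.97% were lower by any amount. At least 1.5-fold lower were 5, against 1.55% of all detected genes. They include Zbtb16, the transcription factor gene also called Plzf (92.9 against 148, with 3 probe sets from -0.85 to -0.66), Sgk1, a kinase gene (289 against 441, -0.60), and Ddit4, a stress-inducible brake on mTORC1 (318 against 488, -0.61). Sult1a1 differed by -0.82, and Errfi1 by -1.35 in its brightest probe set and -0.07 in the other. Tsc22d3, among the best known glucocorticoid targets, went the other way in its 3 detected probe sets (656 against 454 in the brightest, 0.54). The other higher gene was Dusp1, bright at 12941 against 11149 (0.23). Fkbp5 differed by -0.15, and Per1 was level (763 against 827, -0.10). The genes of this list respond to other signals as well.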
